A study of Mus musculus with 6 samples.

Results

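The mitochondrial ribosomal protein genes were taken as every row of the deposited count table whose symbol begins with Mrpl or Mrps followed directly by a digit, with symbols carrying -ps left out. The rule found 76 of 34573 genes, 47 named for the large subunit and 29 for the small subunit. Of these, 75 passed the filter on low counts and were tested among 13729 genes.

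The cells were thymocytes of the double negative 3 (DN3) stage, which lack CD4, CD8 and CD44 and carry CD25, sorted from adult mouse thymus. The 3 KO libraries came from mice labelled Cre+ with a floxed Rpl22l1 gene (L1 KO in the labels), and the 3 WT libraries from mice labelled Cre- with the same floxed gene. Both groups were 6 to 8 weeks old, on a mix of C57BL/6 and 129, and both carried the floxed alleles, so that Cre was the stated difference between them. The series text names Vav-Cre, which acts in blood-forming cells and not in DN3 cells alone, and pairs Cre with genotype the other way round from the sample labels, which were followed here. Rpl22l1 encodes a paralog of the cytosolic ribosomal protein Rpl22, and the comparison asks which transcripts differ in DN3 cells that lack it. Given as reads scaled to library size (CPM), Rpl22l1 was at 18.6, 19.98 and 26.1 CPM in KO, against 86.2, 123 and 118 CPM in WT, and each library thus matched its label. It fell with a log2 fold change of -2.35 ± 0.18 (SE) and an adjusted p of 0.00103 by edgeR's quasi-likelihood test, while Rpl22 had 0.18 ± 0.08 and an adjusted p of 0.220, or 0.0322 with the library number as a block.

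Mitochondria translate their own small genome with a ribosome that is built apart from the cytosolic one. Its ribosomal RNAs are transcribed inside the organelle, while its proteins are encoded in the nucleus, translated in the cytosol and imported. The proteins it makes are core subunits of the respiratory chain and the ATP synthase. Many of its proteins descend from bacterial ribosomal proteins, and others are found only in mitochondria. Dividing cells, thymocytes among them, make new mitochondrial ribosomes as they grow.

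Levels in CPM are scaled with edgeR's TMM factors, and CPM per kilobase are used where genes are set against each other. Reads counted to genes were 13887672 to 28128186 per library, of which the 76 genes took 51778 to 104204. Mitochondrial genome transcripts took 2.26% to 3.19% of the counts. The DN3 markers were abundant, with a summed level of 5844 to 6109 CPM in KO and 5971 to 6098 CPM in WT, and 0 of the 9 passed the test. With the library number as a block, Il2ra was called higher, at an adjusted p of 0.00242 in edgeR, and Rag1 and Notch3 lower, at 0.00264 and 0.00544. Cd4, Cd8a, Cd8b1 and Cd44 together had 6.10 to 11.04 CPM in KO and 6.43 to 8.13 CPM in WT, and of these Cd44 was called higher with the block, at an adjusted p of 0.0116 in edgeR. The libraries numbered 1 stood apart in both groups: their departures from the mean of their group had a correlation of 0.598 with each other. Their correlations with every library of the other group that had another number were negative. On balance this follows from taking departures from a group mean.

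Mitochondrial ribosomal protein genes had mostly small positive log2 fold changes of KO over WT, and 1 of the 75 passed the test. Of the 75 tested genes, 67 had a positive log2 fold change, which is 89.3%, against 48.8% of all tested genes. Their median log2 fold change was 0.11, against -0.0066 for all tested genes and 0.0085 for the 6585 tested genes within the same range of mean CPM. The range ran from -0.13 for Mrpl41 to 0.47 for Mrpl42. These genes were measured in bulk RNA, in which more cells of a kind and more RNA per cell cannot be told apart.

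In edgeR's quasi-likelihood test, with p adjusted after Benjamini and Hochberg at 0.05, 1 of the 75 genes rose, which was Mrpl42, and 0 fell. Over all tested genes 2.14% were called higher and 2.43% lower, 4.57% in either direction, so that the share of 1.33% among these genes was below the background. At an unadjusted p under 0.05, 15 of the 75 were higher, or 20%, and 0 were lower. Over all genes 11.3% were higher and 12.1% lower at that level, 23.4% together. In 20 of the 75 genes, or 26.7%, every KO library lay above every WT library, against 13.8% of all tested genes. The opposite order was found in 0 of the 75, against 14.7% of all tested genes.

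The titles number the libraries 1 to 3 in both groups. The libraries numbered 1 deviated together, with a correlation of 0.598. Pairs by number were less clear for 2 and 3, as KO 2 correlated better with WT 3 (0.272) than with WT 2 (0.200). With the library number as a block, 13 of the 75 genes were called higher and 0 lower, against 9.96% higher and 10.3% lower among all tested genes. The 13 were Mrpl18, Mrpl20, Mrpl21, Mrpl42, Mrpl45, Mrpl47, Mrpl52, Mrps14, Mrps15, Mrps18a, Mrps18c, Mrps22 and Mrps28. They make up 17.3% of the 75. The log2 fold changes themselves moved little, with a median of 0.11 in this fit as well.

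**Figure D1:**
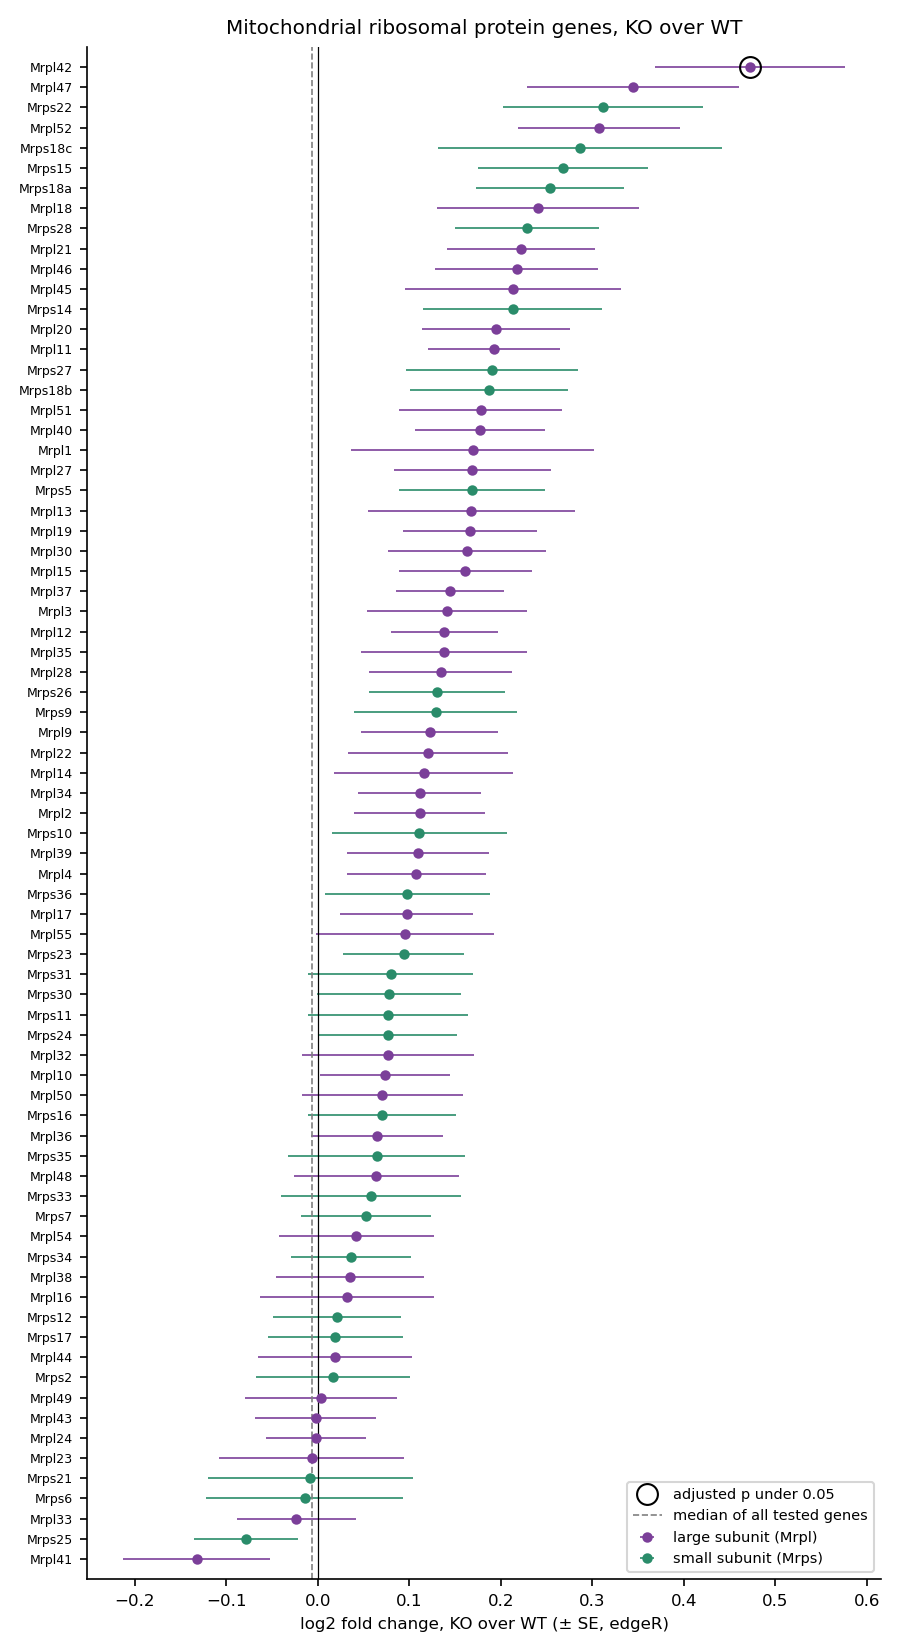
Log2 fold change of KO over WT (x axis) for each of the 75 tested genes (y axis), as points with bars of ± SE from edgeR, large subunit in purple and small subunit in green. The ring marks Mrpl42, the gene with an adjusted p under 0.05 at 0.47, and the dashed line the median of all tested genes, to the right of which nearly all points lie.

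Mrpl42 encodes a large subunit protein found only in mitochondria. Its levels were 60.0, 68.1 and 69.4 CPM in KO, against 41.3, 53.6 and 47.3 CPM in WT. Every KO library was above every WT library, and library 1 was the lowest of each group. The means were 65.9 ± 5.13 CPM in KO and 47.4 ± 6.15 CPM in WT (SD, n = 3 each). KO exceeded WT by 0.47 ± 0.10 (SE) on the log2 scale, at an adjusted p of 0.0368 by edgeR's quasi-likelihood test and 0.000658 with the replicate block. Leaving out each library in turn gave log2 fold changes of 0.383 to 0.57, but the call mostly did not hold. In edgeR the adjusted p was 0.148 without KO 2, 0.130 without KO 3 and 0.0733 without WT 1. It was 0.0573 without WT 2 and 0.0982 without WT 3. In these fits 109 to 415 of all tested genes were called, against 628 in the full fit. Without KO 1 the adjusted p of Mrpl42 was 0.00999. It was also 0.0507 in edgeR without robust fitting. Mrpl42 (ENSMUSG00000062981) lies on chromosome 10 from 95480805 to 95501940 on the minus strand of GRCm38, where no exon of another gene overlaps its exons in the GENCODE annotation.

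Promoter stretches are shown for the 4 genes with the largest log2 fold changes, beside Mrpl12, which carries the NRF1-type element, and Mrpl33, which hardly differed. The sequences are RefSeq's for GRCm38.p6, from 100 bases before to 20 bases after the listed start, 5′ to 3′ on the gene's strand. Capitals mark matches, on either strand, to the ETS-type element CCGGAAG, the YY1-type element AAGATGGCG or the NRF1-type element, GCGCA then any base then GCGC. Of the 4, Mrpl42 and Mrpl47 hold none of these in the stretch shown. The genes were picked for printing after their values were seen. Mrpl42 lies at chr10:95501930-95502049, minus strand, Mrpl47 at chr3:32736736-32736855, minus strand, and Mrps22 at chr9:98601660-98601779, minus strand. Mrpl52 lies at chr14:54426809-54426928, plus strand, Mrpl12 at chr11:120484537-120484656, plus strand, and Mrpl33 at chr5:31613851-31613970, plus strand.
Mrpl42: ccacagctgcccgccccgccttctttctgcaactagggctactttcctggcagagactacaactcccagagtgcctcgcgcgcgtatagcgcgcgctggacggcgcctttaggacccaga
Mrpl47: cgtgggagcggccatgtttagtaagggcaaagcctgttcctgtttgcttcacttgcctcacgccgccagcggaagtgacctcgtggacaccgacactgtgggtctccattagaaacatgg
Mrps22: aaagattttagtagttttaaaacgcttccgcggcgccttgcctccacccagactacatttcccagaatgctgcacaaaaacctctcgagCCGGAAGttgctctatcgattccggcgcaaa
Mrpl52: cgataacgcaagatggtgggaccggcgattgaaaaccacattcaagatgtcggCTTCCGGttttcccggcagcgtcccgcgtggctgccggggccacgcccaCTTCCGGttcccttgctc
Mrpl12: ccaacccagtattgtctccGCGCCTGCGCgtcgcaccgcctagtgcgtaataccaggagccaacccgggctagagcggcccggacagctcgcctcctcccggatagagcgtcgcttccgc
Mrpl33: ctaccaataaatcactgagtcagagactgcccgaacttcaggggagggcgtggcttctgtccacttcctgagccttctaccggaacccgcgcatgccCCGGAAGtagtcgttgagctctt

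ETS factors such as GABP, NRF1 and YY1 are known regulators of nuclear genes for mitochondrial proteins, and each of these elements was searched on both strands in windows of 300 bases, 250 before and 50 after the start. A window was found for 67 of the 76 genes. The ETS-type element was in 34.3% of them, against 18.9% of 8613 tested protein-coding genes and 9.12% of all 27025 windows, while 38.6% of 57 cytosolic ribosomal protein windows held it. The NRF1-type element was in 17.9%, against 11.02% and 4.78%, and the YY1-type element in 11.9%, against 3.43% and 1.495%, in the same order of sets. In cytosolic ribosomal protein windows these stood at 7.02% and 5.26%. Other elements lay near the share of the tested protein-coding genes or below it. The E-box CACGTG was in 7.46%, against 10.4% of tested protein-coding genes and 7.24% of all windows. The SP-type GGGCGG was in 49.3%, against 64.7% and 35.9%, CCAAT in 40.3%, against 39.5% and 37.9%, and TATAAA in 5.97%, against 6.41% and 14.2%. The ETS-type and YY1-type letters can overlap, as both hold AAG, and a window with such a stretch counts under both. A match describes the letters and says nothing of binding.

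The median log2 fold changes of genes with and without an element lay close together, and no difference between them was tested. The 22 tested genes with the ETS-type element had a median of 0.14, against 0.10 for the 44 without it. The 12 with the NRF1-type element had 0.12, against 0.11 for the 54 without it, and the 8 with the YY1-type element had 0.14, against 0.11 for the 58 without it. Mrpl42, with the largest value, had the YY1-type element outside the stretch shown and neither the ETS-type nor the NRF1-type element.

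The large subunit holds the peptidyl transferase centre, the stalk that recruits translation factors and the tunnel through which new chains leave. Of its 46 tested genes by symbol, 41 were positive in log2 fold change (median 0.12), and 1 was called higher, against 2.14% of all tested genes. With the replicate block 7 were called higher, or 15.2%, against 9.96% of all tested genes, and 0 lower. Beside Mrpl42, the largest values were those of Mrpl47, Mrpl52, Mrpl18 and Mrpl21. In none of these did the adjusted p pass in the main fit, which has no block.

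Mrpl47 encodes the homolog of bacterial L29, which sits near the exit of the tunnel. It had 68.6, 80.7 and 88.2 CPM in KO, against 53.4, 67.4 and 66.0 CPM in WT. The groups did not overlap, though KO 1 and WT 2 were close. Its log2 fold change was 0.34 ± 0.12 (SE), at an adjusted p of 0.119 by edgeR's quasi-likelihood test and 0.00259 with the block. Exons of Actl6a and Ndufb5 overlap those of Mrpl47 on the other strand, and the strand setting of the counting is not given in the sources used here.

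Mrpl52, a mitochondrion-specific large subunit gene, had 35.5, 37.3 and 39.3 CPM in KO, against 26.9, 31.6 and 32.1 CPM in WT. The groups did not overlap and each was narrow. The log2 fold change was 0.31 ± 0.09, with an adjusted p of 0.0803 by edgeR's quasi-likelihood test and 0.0102 with the block. With no filter on low counts Mrpl52 passed as well, at an adjusted p of 0.0485 in edgeR.

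Mrpl18, the homolog of bacterial L18 in the central protuberance, had 81.5, 103 and 95.4 CPM in KO, against 68.2, 85.3 and 83.6 CPM in WT. The groups overlapped, since KO 1 lay below WT 2 and WT 3. Its log2 fold change was 0.24 ± 0.11, with an adjusted p of 0.230 by edgeR's quasi-likelihood test and 0.0110 with the block. Mrpl18 shares exon bases with Tcp1 on the other strand. Mrpl21, the homolog of bacterial L21, had 45.7, 48.9 and 49.8 CPM in KO, against 37.4, 43.2 and 43.2 CPM in WT. There was no overlap, and its log2 fold change was 0.22 ± 0.08, with an adjusted p of 0.140 by edgeR's quasi-likelihood test and 0.0290 with the block.

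The stalk proteins bind the translation factors that drive each step of elongation. The 3 stalk genes all had positive values: Mrpl11 0.19 ± 0.07, Mrpl12 0.14 ± 0.06 and Mrpl10 0.07 ± 0.07 on the log2 scale, and 0 were called with or without the block. Mrpl12, whose protein is also known to bind the mitochondrial RNA polymerase, had 105, 114 and 109 CPM in KO, against 97.7, 98.4 and 102 CPM in WT. Its groups did not overlap, but its adjusted p was 0.195 by edgeR's quasi-likelihood test.

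At the exit of the tunnel, where the ribosome meets the inner membrane, 4 of 6 genes had positive values and the median was 0.07. Mrpl45, which encodes the protein that anchors the ribosome to the membrane, had 41.9, 52.9 and 51.7 CPM in KO, against 36.0, 45.1 and 45.2 CPM in WT. Its groups overlapped, as KO 1 lay below WT 2 and WT 3, and its log2 fold change was 0.21 ± 0.12. The adjusted p of Mrpl45 was 0.309 by edgeR's quasi-likelihood test and 0.0317 with the block. Mrpl22 had a log2 fold change of 0.12 ± 0.09 and Mrpl44 of 0.02 ± 0.08. Mrpl23 and Mrpl24, homologs of bacterial L23 and L24, were at -0.0069 ± 0.10 and -0.0023 ± 0.05.

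The central protuberance, the crown of the large subunit, had 6 of 6 genes positive with a median of 0.17, and 0 were called. With the block 1, Mrpl18, was called higher, or 16.7%, against 9.96% of all tested genes. The 3 stalk genes had a median of 0.14. These sets are too small to be set against each other, and no difference between them was tested.

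The small subunit binds the mRNA and decodes it. Of its 29 genes by symbol, 26 were positive in log2 fold change (median 0.08), and 0 were called in either direction, against 4.57% of all tested genes. At an unadjusted p under 0.05, 4 were higher, or 13.8%, near the 11.3% of all tested genes, and 0 lower. With the replicate block 6 were called higher, or 20.7%, against 9.96% of all tested genes, and 0 lower. DESeq2 and limma-voom called 0 of the 29.

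Mrps22, a mitochondrion-specific small subunit gene whose human counterpart is mutated in mitochondrial disease, had 28.8, 32.5 and 36.7 CPM in KO, against 24.5, 25.0 and 29.3 CPM in WT. The groups overlapped slightly, as KO 1 was below WT 3. The log2 fold change was 0.31 ± 0.11, with an adjusted p of 0.128 by edgeR's quasi-likelihood test and 0.0122 with the block. Mrps15, the homolog of bacterial S15, had 55.2, 58.5 and 64.3 CPM in KO, against 44.4, 54.4 and 48.8 CPM in WT. Its groups did not overlap, and its log2 fold change was 0.27 ± 0.09, with an adjusted p of 0.126 by edgeR's quasi-likelihood test and 0.0195 with the block. Mrps28 had 29.0, 31.4 and 31.1 CPM in KO, against 24.4, 26.4 and 27.2 CPM in WT, again without overlap. Its log2 fold change was 0.23 ± 0.08, with an adjusted p of 0.123 by edgeR's quasi-likelihood test and 0.0462 with the block.

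**Figure D2:**
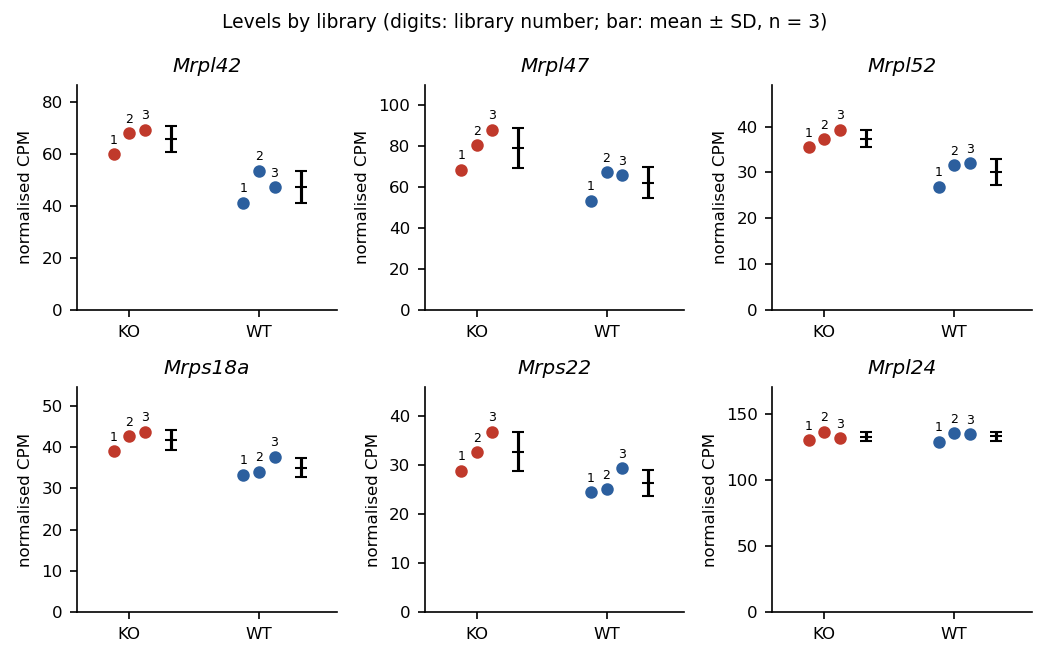
Normalised CPM (y axis, from 0) in each library of KO (red) and WT (blue, x axis) for 6 genes, with bars of the mean ± SD (n = 3 each) beside the points and library numbers above them. The groups do not overlap for Mrpl42, Mrpl47, Mrpl52 and Mrps18a, they overlap slightly for Mrps22, and for Mrpl24 they lie on top of each other near 133 CPM.

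The S18 family is a set of 3 relatives of bacterial S18 that mammals carry in place of 1 protein. All 3 had positive values, with a median of 0.25. Mrps18a, whose protein is now placed in the large subunit in spite of its name, had 38.9, 42.6 and 43.6 CPM in KO, against 33.3, 34.0 and 37.7 CPM in WT. No KO library reached down to a WT library, and the log2 fold change was 0.25 ± 0.08, with an adjusted p of 0.101 by edgeR's quasi-likelihood test and 0.0199 with the block.

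Mrps18c had 26.9, 32.8 and 38.8 CPM in KO, against 22.1, 29.4 and 28.9 CPM in WT. Its SE was the largest of the 75 genes, its groups overlapped, and its log2 fold change was 0.29 ± 0.16, with an adjusted p of 0.305 by edgeR's quasi-likelihood test and 0.0247 with the block. Mrps18b had 56.9, 53.4 and 54.5 CPM in KO, against 42.8, 49.6 and 52.5 CPM in WT. Its groups did not overlap, although KO 2 and WT 3 nearly met, and its log2 fold change was 0.19 ± 0.09, with an adjusted p of 0.229 by edgeR's quasi-likelihood test and 0.0951 with the block. Moving Mrps18a to the large subunit would leave the small subunit with 0 calls in the main fit, without the block, all the same. The other genes were kept in the subunit of their symbol, and whether each protein belongs there was not checked.

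Mrps5 and Mrps24, whose proteins line the channel by which mRNA enters, had log2 fold changes of 0.17 ± 0.08 and 0.08 ± 0.07. Neither was called with or without the block. In Mrps5 every KO library, at 79.3, 84.0 and 76.5 CPM, lay above every WT library, at 64.1, 74.4 and 75.1 CPM.

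Of the 46 genes with a bacterial homolog, classed by the current names of the proteins, 41 had positive values (median 0.12), and 0 were called. Of the 29 tested genes classed as without one, 26 were positive with a median of 0.09. Of these 1, Mrpl42, was called, or 3.45%, against 4.57% of all tested genes in either direction. That class holds Mrps18a and Mrps18b, which the names set apart although they are relatives of bacterial S18. With the block 8 of 46 and 5 of 29 were called higher, or 17.4% and 17.2%, against 9.96% of all tested genes. The 5 include Mrps18a. No difference between these classes was tested.

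At the other end, 8 genes had a log2 fold change below 0, and for most of them the groups lay on top of each other. Mrpl41, a mitochondrion-specific large subunit gene, had the lowest value. Its levels were 30.4, 30.6 and 31.3 CPM in KO, against 30.7, 35.9 and 34.6 CPM in WT. WT 1 lay among the KO libraries, and the log2 fold change was -0.13 ± 0.08, with an adjusted p of 0.350 by edgeR's quasi-likelihood test. Mrps25, a mitochondrion-specific small subunit gene, had 128, 122 and 124 CPM in KO, against 138, 130 and 127 CPM in WT. Its groups overlapped, and its log2 fold change was -0.08 ± 0.06, with an adjusted p of 0.436 by edgeR's quasi-likelihood test.

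Mrpl24 had the smallest SE of the 75 genes, with 130, 137 and 132 CPM in KO, against 129, 135 and 135 CPM in WT. Its log2 fold change was -0.0023 ± 0.05. Mrpl33, Mrps6, Mrps21, Mrpl23 and Mrpl43 had values between -0.02 and -0.0023, and Mrpl49 and Mrps2 had 0.0032 and 0.02. The signs of these 8 values, Mrpl24 included, turned under at least 1 other setting of the processing. The largest size reached after such a turn was 0.08, and the smallest adjusted p among those settings was 0.6055.

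The precision bounds how far most of these genes could have moved. The median SE of the log2 fold change was 0.08 for the 75 genes, against 0.10 for all tested genes, with 250 to 3766 reads per gene and library. The 95% interval lay within a 1.5-fold change in either direction for 72 of the 75 genes. For Mrpl42 it ran from 0.24 to 0.71 on the log2 scale.

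Mrpl53 was the only gene of the 76 that was not tested. It had 0 reads in all 6 libraries, which allows up to 3 reads in each, or 0.109 to 0.219 CPM in KO and 0.136 to 0.152 CPM in WT. All 695 bases of its transcript lie within exons of Gm42688 on the same strand in the GENCODE annotation. Of the pseudogene rows that the rule leaves out, Mrpl23-ps1 had 2 to 4 reads per library, Mrps36-ps1 had 1 read in WT 3 and 0 elsewhere, and Mrpl48-ps and Mrps36-ps2 had 0 reads.

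Levels differed far more between genes than between groups. Per kilobase of the principal GENCODE transcript, the 75 genes ran from 5.84 to 136 CPM in KO, with a median of 31.8, and from 5.46 to 138 CPM in WT, with a median of 30.1. The highest over all libraries was Mrpl33, the homolog of bacterial L33, with 136 ± 3.01 CPM per kilobase in KO and 138 ± 5.73 in WT (SD, n = 3 each). Mrpl24 followed with 99.2 ± 2.43 in KO and 99.4 ± 2.51 in WT, a gap from Mrpl33 well beyond the spread in both groups. Mrpl42 had 98.9 ± 7.70 CPM per kilobase in KO and 71.2 ± 9.24 in WT, and Mrpl52 had 89.4 ± 4.55 in KO and 72.2 ± 6.83 in WT. In KO, Mrpl42 and Mrpl24 were within their spread of each other, while in WT Mrpl42 ranked below Mrpl24, Mrpl12 and Mrpl23 and did not differ beyond its spread from Mrpl52, Mrpl12 or Mrpl23.

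The lowest per kilobase were Mrpl17, with 5.84 ± 0.139 CPM in KO and 5.46 ± 0.342 in WT, and Mrps35, with 8.15 ± 0.877 in KO and 7.80 ± 0.568 in WT. Next came Mrpl1, with 8.96 ± 1.51 CPM per kilobase in KO and 7.96 ± 0.860 in WT, and Mrpl35, with 10.6 ± 0.709 in KO and 9.59 ± 0.892 in WT. Mrps35, Mrpl1 and Mrpl35 did not all differ from their neighbours beyond the spread. The ranks rest on the transcript chosen as the length. With the shortest coding transcript, a choice added after the data were seen, the WT level of Mrpl17 was 38.8 CPM per kilobase, that of Mrpl1 18.3, that of Mrpl42 104 and that of Mrpl24 119. The other 4 genes named for their level kept theirs. The top gene changed as well: with the shortest transcripts Mrps23 came first, at 150.4 CPM per kilobase in KO and 141 in WT, above Mrpl33, while its principal transcript gives 37.5 in KO and 35.1 in WT.

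**Figure D3:**
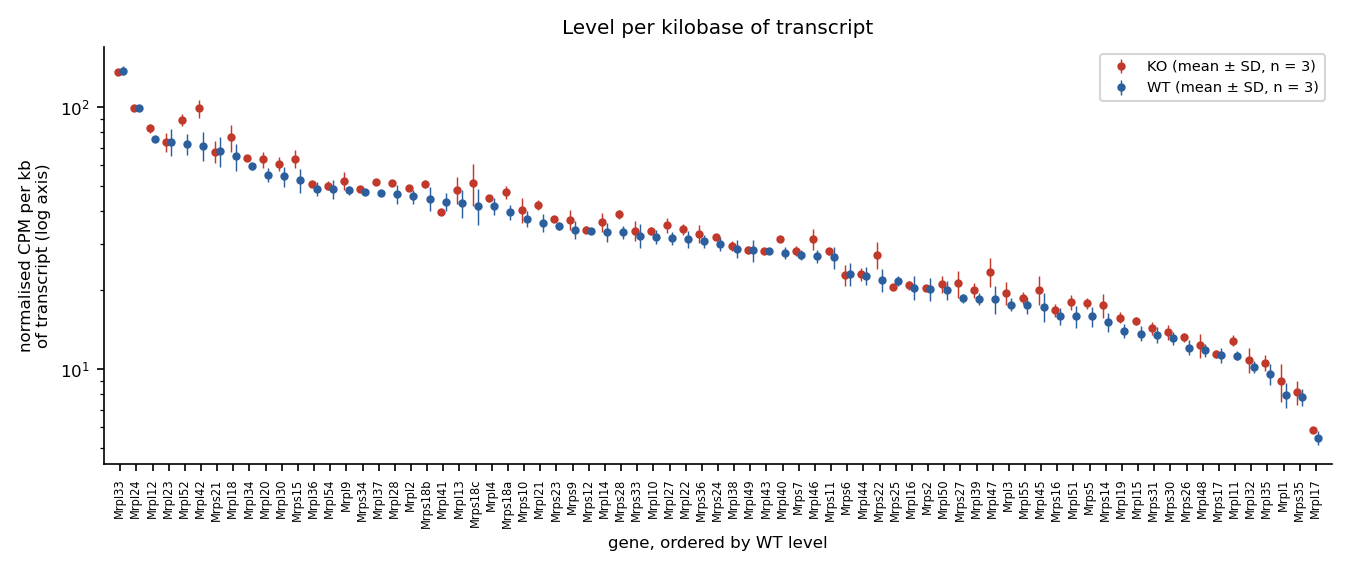
Normalised CPM per kilobase of the principal transcript (y axis, log scale) for each of the 75 tested genes (x axis, ordered by WT level), as mean ± SD (n = 3) of KO in red and WT in blue. Levels span 5.84 to 136 in KO and 5.46 to 138 in WT, while the KO and WT points of a gene lie close together, with Mrpl42 among the wider gaps.

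The shift was not spread evenly over the libraries. The summed level of the genes was 3508, 3778 and 3785 CPM in KO, against 3185, 3506 and 3506 CPM in WT. KO 1 thus stood at the level of WT 2 and WT 3, and WT 1 lay below all others. Expressed as a log2 deviation from each gene's mean over the 6 libraries, the median over the 75 genes was -0.02, 0.09 and 0.08 in KO 1 to 3, against -0.16, -0.01 and -0.02 in WT 1 to 3. WT 1 was the lowest library for 59 of the 75 genes, or 78.7%, against 21.2% of all tested genes. KO 2 or KO 3 was the highest for 55, or 73.3%. Over all tested genes KO 2 was the highest for 15.6% and KO 3 for 19.1%.

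Without WT 1, the median log2 fold change of the 75 genes was 0.07, with 60 positive and 0 called. Without both libraries numbered 1, it was 0.11, with 61 positive, 10 called higher and 0 lower. Those are 10 of 75 in either direction, against 21% of all tested genes in either direction in that fit. The share of all tested genes called higher in it was not counted. The 10 were Mrpl18, Mrpl42, Mrpl45, Mrpl47, Mrpl52, Mrps14, Mrps15, Mrps18a, Mrps18c and Mrps22. The median over the 6 fits that each left out 1 library lay between 0.07 and 0.15 and was positive in each. Scaled by library size alone, which moved the median of all genes to -0.04, the median of these genes was 0.08 with 62 positive. DESeq2, which called 8.91% of all tested genes, and limma-voom, which called 3.89%, each called Mrpl42 higher and 0 others.

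**Figure D4:**
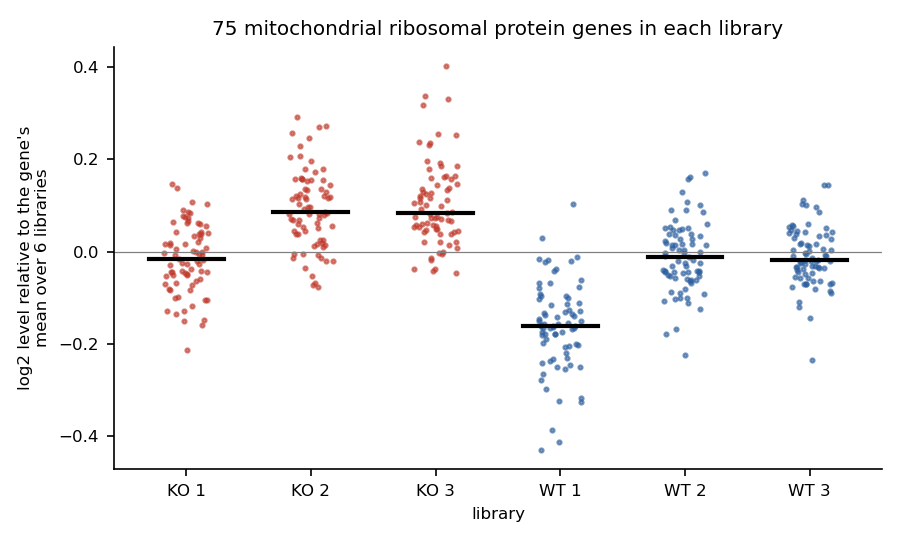
Log2 level of each of the 75 genes relative to its mean over the 6 libraries (y axis) in each KO (red) and WT (blue) library (x axis), with bars at the median. The medians are -0.02, 0.09 and 0.08 in KO 1 to 3 and -0.16, -0.01 and -0.02 in WT 1 to 3, so that KO 1 overlaps WT 2 and WT 3.

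Genes of cycling cells moved in the same direction. All 10 were positive in log2 fold change (median 0.44), and Ccnb1 was called higher. At an unadjusted p under 0.05 all 10 were higher, against 11.3% of all tested genes. With the replicate block all 10 were called higher, at adjusted p of 0.000439 to 0.0119 in edgeR, against 9.96% of all tested genes. Their summed level was 2729, 3458 and 3550 CPM in KO, against 2343, 2254 and 2600 CPM in WT, without overlap, and the lowest of the 3 KO sums was in KO 1, as it was for the mitochondrial ribosomal proteins. The part of cell cycling in the shift of the mitochondrial ribosomal proteins was not tested. Most markers of other cells were low in both groups: the 6 dendritic markers summed to 4.20 to 5.99 CPM in KO and 8.63 to 10.7 CPM in WT, with Cd74 and H2-Eb1 called lower, and the 3 erythroid markers in the table to 0.146 to 2.14 CPM in KO and 1.93 to 4.29 CPM in WT. Of the 4 B lineage markers, Ms4a1 and Pax5 had 0 reads in every library. The 5 myeloid markers summed to 24.7 to 31.4 CPM in KO and 24.1 to 29.3 CPM in WT. The 5 epithelial and stromal markers had a larger sum, of 214 to 239 CPM in KO and 204 to 237 CPM in WT. Nearly all of it was Epcam, Pdgfrb and Pecam1, with Epcam called lower and Pdgfrb higher. Krt8 had 0.181 to 0.350 CPM in KO and 0.0487 to 0.136 CPM in WT. Col1a1 had 0.512 to 0.689 CPM in KO and 0.633 to 0.9995 CPM in WT. The 4 markers of NK and innate lymphoid cells summed to 85.0 to 101 CPM in KO and 65.0 to 92.0 CPM in WT, nearly all of it Gata3, which thymocytes express as well. The part of such cells in the shift was not tested.

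Mitochondrial ribosomal proteins that carry other symbols behaved alike in sign. All 6 had positive values with a median of 0.15, and 0 were called. With the block 1 was called higher, or 16.7%, against 9.96% of all tested genes. Dap3, a GTP-binding small subunit protein, had a log2 fold change of 0.12 ± 0.08, and Ict1, a peptidyl-tRNA hydrolase built into the large subunit, had 0.17 ± 0.07. Gadd45gip1, a large subunit protein at the exit of the tunnel, had 64.5, 76.3 and 82.6 CPM in KO, against 56.5, 65.4 and 71.0 CPM in WT. Its groups overlapped, and its adjusted p was 0.288 by edgeR's quasi-likelihood test and 0.0236 with the block.

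Factors that assemble the mitochondrial ribosome were more evenly divided. Of 26 tested, 15 had positive values, with a median of 0.04, and 0 were called. With the block 1 gene was called higher, or 3.85%, below the 9.96% of all tested genes. That gene was 2410003K15Rik, now named Malsu1, which encodes an assembly factor of the large subunit. It had 47.7, 34.4 and 34.9 CPM in KO, against 36.6, 23.7 and 24.7 CPM in WT. In both groups library 1 was the highest and libraries 2 and 3 close together, and the log2 fold change was 0.46 ± 0.20, with an adjusted p of 0.230 by edgeR's quasi-likelihood test and 0.00115 with the block. Rbfa, a maturation factor of the small subunit, had 0.15 ± 0.07, and Mterfd2, now Mterf4, had -0.20 ± 0.09.

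Of 15 tested factors of mitochondrial translation, 11 had positive values, with a median of 0.10, and 0 were called. With the block 2 were called higher, or 13.3%, near the 9.96% of all tested genes. Tsfm, an elongation factor gene, had 34.4, 33.5 and 32.2 CPM in KO, against 26.4, 29.5 and 28.2 CPM in WT. Its groups did not overlap, and its log2 fold change was 0.25 ± 0.08, with an adjusted p of 0.0877 by edgeR's quasi-likelihood test and 0.0335 with the block. Gfm1, another elongation factor gene, had 0.25 ± 0.09, with an adjusted p of 0.125 by edgeR's quasi-likelihood test and 0.0103 with the block. Mtrf1, a release factor gene, had 0.35 ± 0.15 at a mean of 7.84 ± 0.802 CPM in KO and 6.15 ± 0.753 CPM in WT.

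Tefm, the elongation factor of mitochondrial transcription, fell. It had 33.5, 32.1 and 30.3 CPM in KO, against 46.8, 46.3 and 39.5 CPM in WT. The groups were clearly apart, and the log2 fold change was -0.47 ± 0.09, with an adjusted p of 0.0210 by edgeR's quasi-likelihood test and 0.000896 with the block. Without KO 2, KO 3, WT 1 or WT 2 its adjusted p lay between 0.0546 and 0.113. Tefm was the only call among 11 genes of mitochondrial transcription and genome maintenance, or 9.09%, against 4.57% of all tested genes. Of the 11, 4 had positive values and the median was -0.04. With the block 1 was called higher and 1 lower, or 9.09% each. Over all tested genes these shares were 9.96% and 10.3%. Polg, the mitochondrial DNA polymerase gene, had 0.30 ± 0.09, with an adjusted p of 0.0838 by edgeR's quasi-likelihood test and 0.0119 with the block, and Mterfd3, now Mterf2, had -0.21 ± 0.09.

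Of 9 tested regulators of nuclear genes for mitochondria, 7 had positive values, with a median of 0.05, and 0 were called. Nrf1 had 87.1, 91.8 and 88.4 CPM in KO, against 80.4, 74.2 and 80.5 CPM in WT. Its groups did not overlap, and its log2 fold change was 0.19 ± 0.06, with an adjusted p of 0.123 by edgeR's quasi-likelihood test and 0.0481 with the block. Yy1 had 0.15 ± 0.07 and Gabpb1, a subunit of GABP, had 0.12 ± 0.06, both without overlap between groups. In all, 3 of the 9 had KO above WT without overlap, or 33.3%, against 13.8% of all tested genes. With the block 1 was called higher, or 11.1%, near the 9.96% of all tested genes. Gabpa, also a subunit of GABP, had 0.08 ± 0.07 with overlapping groups. Myc and Esrra were below 0, at -0.07 ± 0.08 and -0.05 ± 0.09.

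Transcripts of the mitochondrial genome, whose mRNAs this ribosome translates, did not share the direction. Of 12 tested mRNAs, 2 had positive values, the median was -0.15, and 0 were called, while 5 were called lower with the block, or 41.7% against 10.3% of all tested genes. Here mt-Nd4 had 1512, 1516 and 1523 CPM in KO, against 1757, 2092 and 1737 CPM in WT. The groups lay apart, and its log2 fold change was -0.30 ± 0.09, with an adjusted p of 0.0930 by edgeR's quasi-likelihood test and 0.00571 with the block. The values of mt-Nd2 and mt-Nd1 were -0.21 ± 0.08 and -0.19 ± 0.10, also without overlap. In all, 3 of the 12 had KO below WT without overlap, or 25%, against 14.7% of all tested genes. The summed level of the 13 mRNAs in the table was 22203, 26735 and 27759 CPM in KO, and the groups overlapped. In WT it was 24147, 30959 and 27375 CPM. The ribosomal RNAs of the organelle, mt-Rnr1 and mt-Rnr2, had -0.34 ± 0.23 and -0.48 ± 0.43, with overlapping groups, and their level in total RNA libraries depends on whether ribosomal RNA was depleted, which the sources used here do not give.

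Nuclear genes of the respiratory chain and cytosolic ribosomal proteins had medians close to that of the mitochondrial ribosomal proteins. Of 78 tested nuclear subunit genes of the respiratory chain, 72 had positive values, with a median of 0.14. The test called 0 of them, 31 had non-overlapping groups with KO higher, or 39.7% against 13.8% of all tested genes, and 22 were called higher with the block, or 28.2% against 9.96%. Cox6a1, with 130, 125 and 128 CPM in KO, against 103, 101 and 115 CPM in WT, came nearest to a call, at 0.26 ± 0.06 and an adjusted p of 0.0533 by edgeR's quasi-likelihood test. Atp5g2 and Cox8a had 0.23 ± 0.06 and 0.27 ± 0.08. Of 78 tested cytosolic ribosomal proteins, 74 had positive values, with a median of 0.12, of which 0 were called and 19 were called higher with the block, or 24.4% against 9.96% of all tested genes. Among them 9 had groups without overlap, KO higher, or 11.5%, below the 13.8% of all tested genes. Rplp1, Rpl4 and Rps12 had 0.21 ± 0.07, 0.23 ± 0.08 and 0.25 ± 0.10. Many cytosolic ribosomal protein genes have near-identical pseudogene copies, with which they can share reads. The summed level of the cytosolic set was 68284, 79505 and 77736 CPM in KO, against 60887, 73809 and 72785 CPM in WT. In that set, too, WT 1 was the lowest library and KO 1 lay below WT 2 and WT 3.

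**Figure D5:**
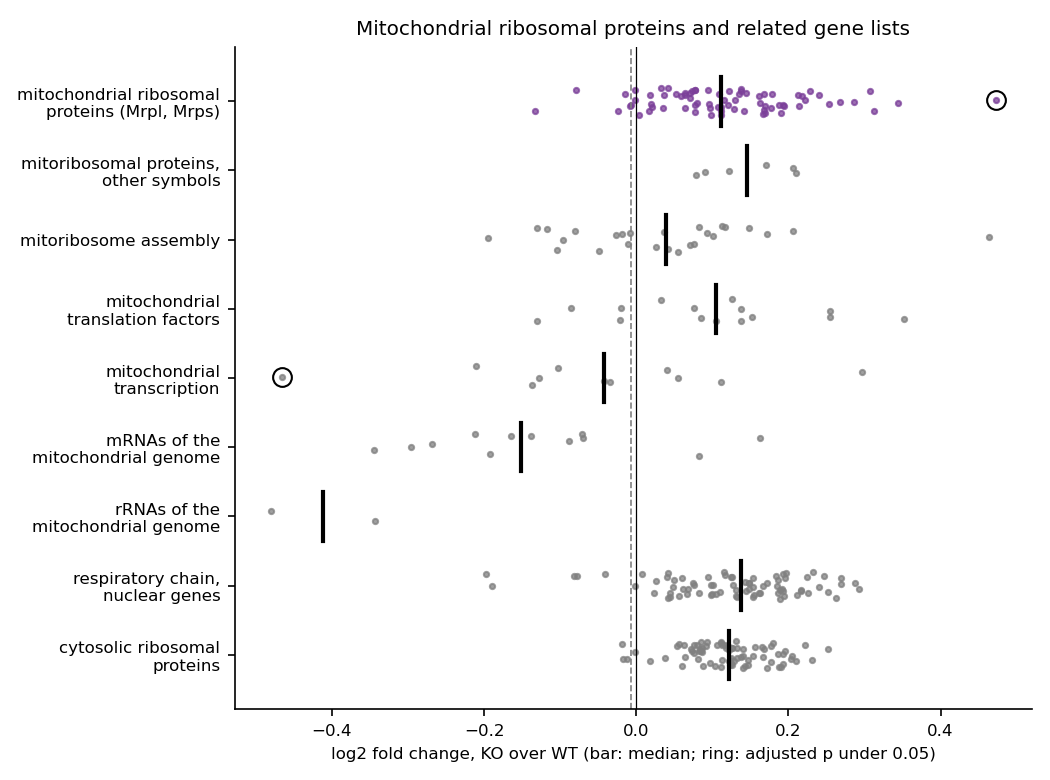
Log2 fold change of KO over WT (x axis) of every tested gene in 9 gene sets (y axis), as points with a bar at each set's median, and rings for an adjusted p under 0.05 by edgeR, which mark Mrpl42 and Tefm. The medians are 0.11 for the mitochondrial ribosomal proteins, 0.14 and 0.12 for respiratory chain and cytosolic ribosomal proteins and -0.15 for mRNAs of the mitochondrial genome.

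The genes are scattered over 17 chromosomes, and many start beside another gene on the opposite strand. Of the 75 tested genes, 32, or 42.7%, had a protein-coding gene starting on the other strand within 1000 bases of their own start, against 17.3% of 10875 tested protein-coding genes and 20.8% of cytosolic ribosomal proteins. Mrps11 and Mrpl46 form such a pair with each other on chromosome 7, with 412 bases of overlap. Their log2 fold changes were 0.08 ± 0.09 and 0.22 ± 0.09. Of the 28 tested partners that are not themselves in the set, 16 had positive values, with a median of 0.07. The test called 1 of the 28, against 4.57% of all tested genes in either direction. Of these partners Sars2, a mitochondrial seryl-tRNA synthetase gene that starts 172 bases from Mrps12, rose with 0.38 ± 0.08 and an adjusted p of 0.0330 by edgeR's quasi-likelihood test, while Mrps12 itself had 0.02 ± 0.07. Sars2 was chosen after its value was seen. Exons of 24 of the 75 genes, or 32%, overlap those of another gene, close to the 32.3% of tested protein-coding genes.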

How the data were processed

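RNA sequencing was done on total RNA of 3 KO and 3 WT samples. The deposited table holds raw counts for each gene symbol, which the authors left unnormalised. Per the submitters' processing notes, the build was GRCm38 and the tools included HTSeq and TopHat2, whose versions, like the annotation, filters and strand setting, no source used here gives. Rows of the counting tool that name no gene were left out: per the deposited counts, reads without a feature made up 50.4% to 51.9%, multiply aligned reads 9.14% to 10.2% and ambiguous ones 0.498% to 0.520%.

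The analysis used edgeR 4.0.16 in R 4.3.3: filterByExpr (minimum count 10, minimum total 15), TMM, robust glmQLFit and a two-sided quasi-likelihood F test on group, over all 13729 genes, with Benjamini-Hochberg adjustment at 0.05. The SE of a log2 fold change is that implied by the F statistic. DESeq2 1.42.0, limma-voom (limma 3.58.1), other scalings and filters, and leaving out libraries were alternatives. The fit was tested on simulated counts with known changes. Columns named Ctrl were taken as WT, matched by number, and 0 columns were left unmatched.

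Departures from the group means had correlations of 0.598, 0.200 and 0.385 between libraries with the same number. No label says what a number stands for. KO 2 correlated better with WT 3, at 0.272, and WT 2 better with KO 3, at 0.340, so that numbers 2 and 3 are not shown to be pairs. The same-number values were all over the threshold of 0.1 for treating numbers as pairs. Departures from a group's mean cancel within that group. A likeness of the libraries numbered 1 alone thus raises the correlations among numbers 2 and 3. Passing the threshold at 2 and 3 is therefore no separate sign of pairing. Values with the replicate block are given beside the others because the threshold was passed, and pairing was not shown. Whether a group's libraries are from different mice is not labelled. The p-values then cover the spread between these samples alone, and that spread may be technical. The 95% intervals of log2 fold changes come from the same test. The limit for 0 reads covers counting error only.

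Coordinates and transcript lengths are from GENCODE M21 and promoters from RefSeq (GRCm38.p6), matched by symbol. Genes and lists were chosen with earlier results of these data known. Named are Rpl22l1 and Rpl22, called members, the 10 largest and 10 smallest log2 fold changes, the 4 highest and 4 lowest levels per kilobase, the S18, stalk, exit tunnel and mRNA entry genes, untested members, and in each related list the called genes and the 3 with the smallest p. Others, such as Mrps14, Mrpl20, Mrpl46, Mrps23, Gabpa, Myc, Esrra, the markers and gene partners, are named for a count or after their values were seen.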

Additional observations from a re-analysis of the deposited data

How the results depend on the processing

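The positive median of the 75 genes held under all 16 alternatives, from 0.07 without WT 1 to 0.15 without WT 3, while the number called moved with the setting. Against 1 call as reported, 2 were called with no count filter, 0 without robust fitting, 13 with the replicate block, 5 with the replicate block in DESeq2, 10 without both libraries numbered 1, and 0 to 7 when each library was left out in turn. For large subunit genes the counts in that order were 2, 0, 7, 4 and 5, and 0 to 3. For small subunit genes, with 0 as reported, they were 6 and 1 with the replicate block in edgeR and DESeq2, 5 without both libraries numbered 1, and 0 to 4. For the related gene lists together, with 1 as reported, they were 9 with DESeq2, 5 with no count filter, 53 and 43 with the block, 41 without both libraries numbered 1, and 0 to 14. Over all tested genes 628 were called as reported, 1222 with DESeq2, 1037 with no count filter, 2785 and 1707 with the block, 2881 without both libraries numbered 1, and 109 to 2177 when each library was left out. The cause was not tested.

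Of 61 named genes, 10 changed sign under some setting, all with values near 0. Leaving out each library gave Mrpl33 -0.0493 to 0.00116, Mrps6 -0.0817 to 0.0645, Mrps21 -0.111 to 0.0753 and Mrpl23 -0.0865 to 0.0814. It gave Mrpl24 -0.0219 to 0.0177, Mrpl43 -0.0189 to 0.0164 and Mrpl49 -0.0708 to 0.057. It gave Mrps2 -0.0631 to 0.0799, Mrps35 -0.0205 to 0.139 and Mrpl44 -0.0269 to 0.089. With DESeq2, Mrpl24 and Mrpl43 had 0.00423 and 0.00283, and with its size factors in edgeR 0.00397 and 0.00407. With no count filter, Mrps21, Mrpl23, Mrpl24 and Mrpl43 had 0.00191, 0.00333, 0.00815 and 0.0083, and with the block in DESeq2 0.00296, 0.00146, 0.00429 and 0.0037. With library size alone, Mrpl49, Mrps2 and Mrpl44 had -0.0273, -0.0134 and -0.0124, and with a filter of 5 CPM Mrpl49 had -0.00875. Without both libraries numbered 1, Mrpl33, Mrpl49 and Mrps2 had 0.0038, -0.0432 and -0.0578. With 3 libraries a group, the median SE of 0.08 limits what could be told apart.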
